A study of Homo sapiens with 6 samples.

Results

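The genes described here build and position the junctions between epithelial cells: tight junctions, adherens junctions, desmosomes and the polarity complexes that separate the apical from the basolateral membrane. The set holds 41 gene symbols from these structures, out of 27980 symbols in the count table. They were chosen with earlier results of these data known. All 41 were found in the table, and 35 had enough reads to be tested. RNA was sequenced from RKO cells, an established and poorly differentiated human colon carcinoma line, in 6 libraries. In 3 libraries lentiviral hairpin RNA targeted TRIP6, a LIM-domain adaptor of focal adhesions (shTRIP6, genotype label TRIP6 knockdown). In the other 3 they carried a scrambled hairpin from the same kind of vector (shControl, genotype label WT). Both groups were selected with 5 µg/ml puromycin from 36 h after infection for 2 to 3 weeks. The labels do not say how many hairpins were used, whether the lines were clones or pools or whether replicates came from separate cultures, so p-values measure the spread between these libraries, which may be technical.

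Tight junctions seal the space between neighbouring epithelial cells. Claudins and the MARVEL-domain proteins occludin and tricellulin span the membrane, immunoglobulin-like proteins such as JAM-A adhere beside them, and zonula occludens scaffolds and cingulins tie them to actin. Adherens junctions hold cells together through E-cadherin and its catenins. Desmosomes anchor keratin filaments through desmogleins and desmocollins, plakoglobin, plakophilins and desmoplakin. The PAR, Crumbs and Scribble complexes set the position of these junctions along the side of the cell. In colonic epithelium these structures form the barrier between gut contents and tissue.

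Library totals were 29605764 to 32089298 counts, and values are CPM, counts scaled to 1e6 per library, with library sizes scaled by TMM. Each log2 fold change sets shTRIP6 against shControl and carries its SE, both from the quasi-likelihood test of edgeR over 15473 genes, and a gene was called at a Benjamini-Hochberg adjusted p under 0.05. TRIP6 itself stood at 24.3% of its shControl level in shTRIP6. The simple-epithelium keratins KRT8 and KRT18 were abundant in all libraries (KRT8 at 1635 to 1873 CPM, KRT18 at 811 to 919 CPM). KRT20, from the same list of keratins, had 0 counts in every library. All 8 colonocyte markers examined (CDH17, VIL1, CDX1, CDX2, LGALS4, GPA33, MUC2 and FABP1) were below 0.5 CPM in every library, and 4 of them had 0 counts throughout. The libraries thus held KRT8 and KRT18 and lacked KRT20 and the colonocyte markers examined. In a bulk sample, fewer cells expressing a gene and less RNA per cell cannot be told apart.

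Junction and polarity genes differed between the groups in both directions. Of the 35 tested members, 11 rose and 18 fell in shTRIP6 and 6 were not called. That is 82.9% called, against a background of 60.1% of all tested genes called in either direction (29.0% higher and 31.2% lower). Of the 19 members whose mean reached 10 CPM, 17 were called (89.5%), against 66.2% of all tested genes at that level. Of these 19, 4 fell and 0 rose at least 2-fold, where the background in either direction was 6.44%. At least 2-fold, 5 members rose, where the background was 4.38%, and 10 fell, where it was 10.5%. The median log2 fold change of the tested members was -0.26, beside -0.004 over all tested genes. In 30 of the 35 the libraries of the groups did not overlap, where the background was 65.3%. Because the members were chosen with earlier results of these data known, these shares and medians describe the list and test nothing. Of 57 other junction and polarity genes tested, a list chosen with the same knowledge, 66.7% were called and the median was 0.039.

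**Figure D1:**
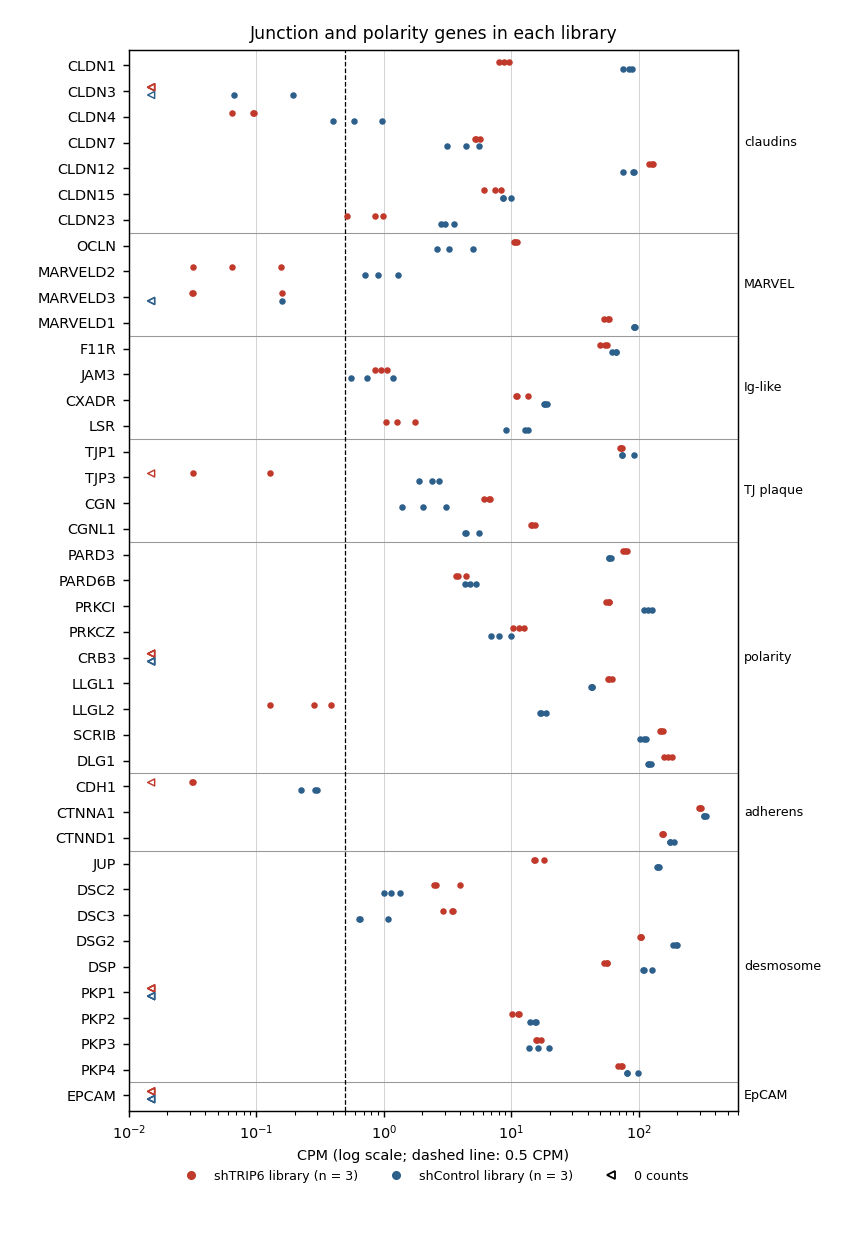
Each point is the level of a gene in a library (CPM, log axis), in red for shTRIP6 and blue for shControl, with 3 libraries per group and open triangles for 0 counts. LLGL2, TJP3 and MARVELD2 lie above the dashed line of 0.5 CPM in all shControl libraries and below it in all shTRIP6 libraries, and CRB3, PKP1 and EPCAM have 0 counts in all 6.

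The silent members come first: CRB3, PKP1, EPCAM, CDH1, CLDN3 and MARVELD3 stayed below 0.5 CPM in every library and were not tested. EPCAM, an epithelial surface adhesion protein (chr2:47345158-47387601), CRB3, the apical Crumbs protein of epithelia (chr19:6463777-6467221), and PKP1, a plakophilin of stratified epithelia (chr1:201283452-201332993), had 0 counts in all 6 libraries. A count of 0 allows a level of up to 0.0941 to 0.101 CPM in a library, the value of 3 counts, which covers counting error only. CLDN3, a sealing claudin of the gut, had 0 counts in each shTRIP6 library and 2, 0 and 6 counts in the shControl libraries. MARVELD3, a MARVEL-domain protein of tight junctions, had 1, 1 and 5 counts in shTRIP6 and 0, 5 and 0 in shControl. The groups overlapped for both genes at these few reads.

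CDH1, which encodes E-cadherin (chr16:68737225-68835548), was nearly silent too. It had 1, 0 and 1 counts in the shTRIP6 libraries and 9, 9 and 7 counts in the shControl libraries, at most 0.302 CPM. The shControl level was 12.8 times that of shTRIP6, with an exact 95% binomial interval of 3.20 to 112 that covers counting error only. CDH1 did not have enough counts to be tested in the main comparison, and without the low-count filter its log2 fold change was -3.45 with an edgeR adjusted p of 0.0200. CTNNA1 and CTNND1, which encode cytoplasmic partners of E-cadherin, were among the most abundant members, as described below for the adherens junction.

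Promoter windows, the 250 bases before the start of a gene in RefSeq (GRCh38.p14), were matched for 27 of the 41 members. The others were CLDN23, MARVELD3, F11R, JAM3, CXADR, PARD3, PARD6B, LLGL2, SCRIB, CDH1, CTNND1, PKP2, PKP3 and EPCAM. Each window was searched on both strands for CACCTG, the E-box bound by ZEB and Snail repressors, for AACCNGTT, the Grainyhead-like site, and for TGANTCA, the AP-1 site. CACCTG was present in 7 of 27 member windows (25.9%), against 17.5% of 35116 windows of all genes, which include non-coding genes. TGANTCA was present in 2 member windows (7.41%), against 6.57% of all windows, with 2 matches in CLDN4 and 1 in CLDN15. Member windows had a median GC content of 66.8%, against 58.0% in all windows, and a median ratio of observed to expected CpG of 0.738, against 0.558.

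The silent gene CRB3 held 5 of the 13 CACCTG matches in member windows. At least 5 matches were found in 26 of all windows (0.0740%). The windows of PKP1 and CLDN3, also silent, held no CACCTG match, and those of EPCAM, CDH1 and MARVELD3 were not available. The 5 sites are shown because they belong to a gene without a read in either group, with the E-box in capitals (CAGGTG is CACCTG on the other strand), 30 bases each on the plus strand of chromosome 19.
CRB3, 228 bases before the start, chr19:6464031-6464060: atgctcgcaatgCAGGTGtaaggtccccct
CRB3, 208 bases before the start, chr19:6464051-6464080: aggtccccctcaCACCTGcgcgcttccgcg
CRB3, 147 bases before the start, chr19:6464112-6464141: ggggtcccgttaCAGGTGcgcccacagcgc
CRB3, 89 bases before the start, chr19:6464170-6464199: ctcagcgaggctCAGGTGcacaagccggaa
CRB3, 60 bases before the start, chr19:6464199-6464228: agtgcgctctccCAGGTGagtgactaaact

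DSP and DSG2 held 2 CACCTG matches each, and at least 2 matches were found in 2.53% of all windows. OCLN, TJP1, DLG1 and DSC2 held 1 each. These genes did not share a direction: DSP, DSG2 and CRB3 were lower or silent, OCLN, DLG1 and DSC2 rose, and TJP1 was not called. The sites of DSP and DSG2, which fell, and of OCLN, which rose, are set out below with the E-box in capitals, all on the plus strand. The Grainyhead-like site of CGN, the only member window with AACCNGTT (1.49% of all windows), follows with its match in capitals.
DSP, 178 bases before the start, chr6:7541481-7541510: gggcggcgggcgCAGGTGgggaggggcggc
DSP, 85 bases before the start, chr6:7541574-7541603: gaagaaaccggcCAGGTGtggcctaggcgc
DSG2, 232 bases before the start, chr18:31497933-31497962: acgtcacggtccCAGGTGcgagtgcgagcg
DSG2, 116 bases before the start, chr18:31498049-31498078: tcgcggcggccaCACCTGgagccgcgcctt
OCLN, 33 bases before the start, chr5:69492502-69492531: ccatccgagtttCAGGTGaattggtcaccg
CGN, 27 bases before the start, chr1:151511349-151511378: cgcagcggagtAACAGGTTggtgggaggga
These RefSeq starts lie inside the gene spans that GENCODE gives. The sites of CRB3, OCLN and CGN therefore fall within those spans, the nearer sites of DSP and DSG2 lie in or reach into them, and annotated exons of the same gene overlap every one of these windows except that of CGN. A match is a description of these letters only, and the windows of CLDN1, JUP, LSR and TJP3 held none of the 3 motifs. The window of CLDN4, which also fell, held 2 TGANTCA matches.

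Claudins changed in both directions: CLDN1, CLDN4 and CLDN23 fell, and CLDN12 rose. CLDN1, a barrier-forming claudin (chr3:190305701-190322475), measured 8.85, 8.06 and 9.58 CPM in the shTRIP6 libraries and 88.8, 83.9 and 75.7 CPM in the shControl libraries. Its level in shTRIP6 was 10.7% of that in shControl (log2 fold change -3.23 ± 0.08, adjusted p = 1.50e-16). CLDN12, a claudin without the usual PDZ-binding tail (chr7:90383721-90513402), rose to 129, 121 and 128 CPM from 89.8, 75.8 and 91.5 CPM (log2 fold change 0.56 ± 0.06, adjusted p = 4.72e-07). All shTRIP6 libraries lay below the shControl libraries for CLDN1 and above them for CLDN12. CLDN23, a claudin of differentiated gut epithelium, fell to 0.847, 0.991 and 0.514 CPM from 3.53, 2.79 and 3.04 CPM (log2 fold change -1.99 ± 0.30). CLDN4, a sealing claudin that lies 29.3 kb from CLDN3 on chromosome 7, fell from 12, 30 and 18 counts to 3, 3 and 2 counts (log2 fold change -2.88 ± 0.63, adjusted p = 0.000619).

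CLDN7 and CLDN15 were not called. CLDN7, a basolateral claudin, measured 5.24, 5.69 and 5.27 CPM in shTRIP6 and 3.16, 4.46 and 5.56 CPM in shControl, a log2 fold change of 0.30 ± 0.19 (adjusted p = 0.196). The libraries of the groups overlapped. CLDN15, a cation-pore claudin of the intestine, measured 7.41, 8.31 and 6.17 CPM in shTRIP6 and 9.88, 8.57 and 8.60 CPM in shControl, a log2 fold change of -0.30 ± 0.14 (adjusted p = 0.0725). Per kilobase of annotated exon, CLDN1 made up 54.0% ± 3.35 (SD, n = 3) of the summed level of the 7 claudins in shControl and 9.20% ± 0.775 in shTRIP6. CLDN12 made up 30.4% ± 2.58 in shControl and 71.4% ± 1.56 in shTRIP6. The summed level of these 7 claudins was 41.8 ± 1.91 CPM per kb in shControl and 26.2 ± 0.434 CPM per kb in shTRIP6. The 17 other claudins, among them CLDN10, described below, are not in this sum. Exons of CLDN12 overlap those of CDK14 and GTPBP10, so its share may hold their reads. With 3 libraries against 3, an exact two-sided permutation test of such a share cannot give a p below 0.1, and these shares are given without a test.

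The MARVEL-domain proteins of the tight junction went opposite ways. OCLN, which encodes occludin (chr5:69492292-69558104), rose to 11.05, 10.7 and 10.4 CPM from 5.01, 3.24 and 2.62 CPM (log2 fold change 1.57 ± 0.18, adjusted p = 6.63e-07). MARVELD2 encodes tricellulin, which marks the points where 3 cells meet, and lies 48.0 kb from OCLN at chr5:69415065-69444330. MARVELD2 fell to 5, 1 and 2 counts from 27, 40 and 22 counts (log2 fold change -3.45 ± 0.60, adjusted p = 6.23e-05). Its level was 0.712 to 1.28 CPM in shControl and at most 0.157 CPM in shTRIP6. OCLN took 98.3% ± 0.882 of the summed level per kb of OCLN, MARVELD2 and MARVELD3 in shTRIP6 and 73.5% ± 8.51 in shControl. MARVELD1, a related protein not restricted to tight junctions, fell from 92.4, 93.9 and 91.2 CPM to 58.1, 57.8 and 53.9 CPM (log2 fold change -0.71 ± 0.06).

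LSR recruits tricellulin to these tricellular points, and it fell with MARVELD2. LSR (chr19:35248330-35267964) measured 1.04, 1.28 and 1.77 CPM in shTRIP6 and 9.18, 13.5 and 12.8 CPM in shControl, a log2 fold change of -3.12 ± 0.21 (adjusted p = 2.43e-10). ILDR1 and ILDR2, the other proteins of the LSR family, had 0 counts in all libraries and 2 counts in a single shTRIP6 library, respectively. The other immunoglobulin-like members changed less. F11R, which encodes JAM-A, fell from 61.7, 67.0 and 66.9 CPM to 50.02, 56.1 and 54.6 CPM (log2 fold change -0.28 ± 0.06, adjusted p = 0.000746). CXADR, the coxsackievirus and adenovirus receptor, fell from 19.0, 18.2 and 18.4 CPM to 11.2, 11.001 and 13.6 CPM (log2 fold change -0.64 ± 0.10). JAM3 was not called at 0.847 to 1.06 CPM in shTRIP6 and 0.550 to 1.18 CPM in shControl, and its exons overlap those of NCAPD3.

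On the cytoplasmic side, the cingulins rose while a zonula occludens scaffold was nearly lost. CGN, which encodes cingulin (chr1:151510510-151538692), rose to 6.15, 6.88 and 6.72 CPM from 2.05, 3.08 and 1.39 CPM (log2 fold change 1.60 ± 0.23, adjusted p = 6.89e-06). CGNL1, which encodes paracingulin (chr15:57375967-57550727), rose to 14.5, 14.3 and 15.4 CPM from 4.40, 5.55 and 4.37 CPM (log2 fold change 1.62 ± 0.13, adjusted p = 4.20e-09). The cingulins and OCLN each stood at 2.97 to 3.09 times their shControl level. TJP3, a zonula occludens scaffold (chr19:3708109-3750813), fell to 0, 4 and 1 counts from 81, 75 and 58 counts. The shControl level of TJP3 was 43.9 times that of shTRIP6, with an exact 95% binomial interval of 18.5 to 137 for counting error only, and its log2 fold change was -5.36 ± 0.56 (adjusted p = 1.50e-07). TJP1, the scaffold of the same family found in most epithelia, measured 72.7, 72.0 and 74.1 CPM in shTRIP6 and 91.3, 73.7 and 73.6 CPM in shControl and was not called (adjusted p = 0.142). The difference between the TJP1 means came from shControl replicate 1, and the other shControl libraries lay within the shTRIP6 range.

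**Figure D2:**
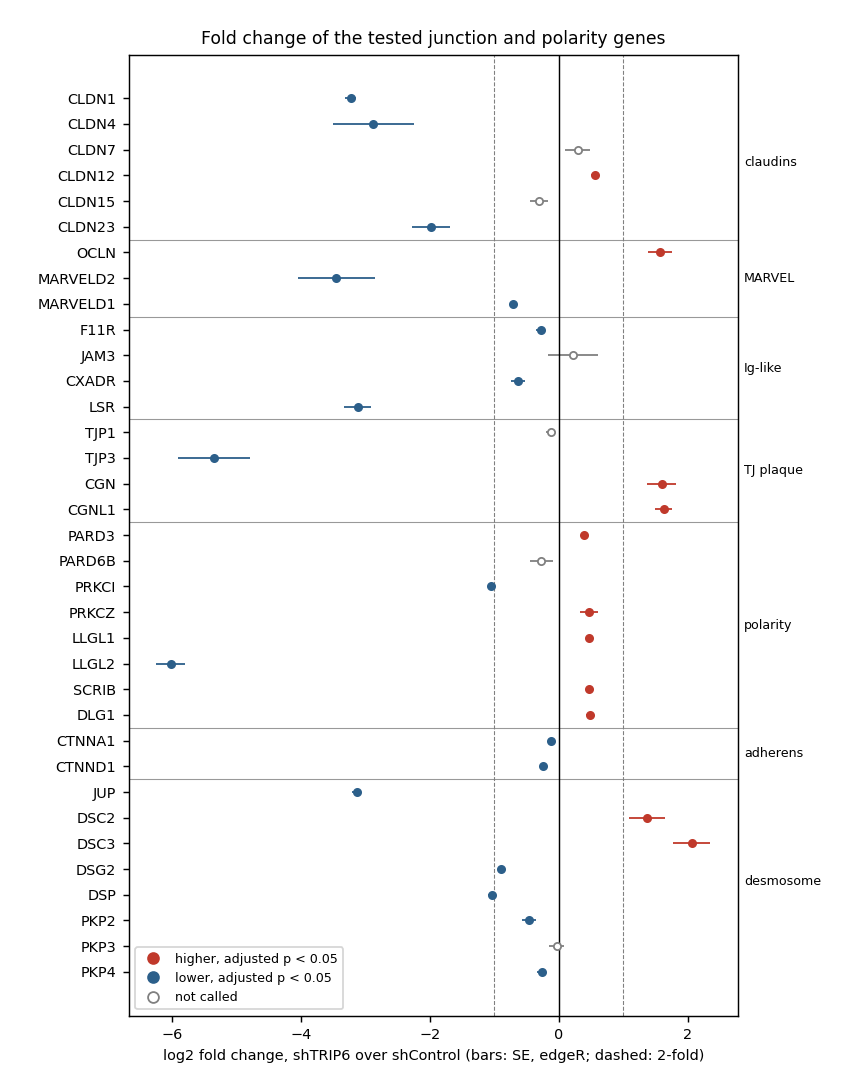
Points give the log2 fold change between shTRIP6 and shControl, with bars of 1 SE, for the 35 tested members, in red where called higher, blue where called lower and open where not called. Falls reach -6.03 for LLGL2 and -5.36 for TJP3, and the largest rise is 2.06 for DSC3.

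The adherens junction catenin genes CTNNA1 and CTNND1 were abundant and changed little, unlike JUP, described next. CTNNA1, which encodes alpha-catenin, measured 300, 306 and 303 CPM in shTRIP6 and 323, 324 and 338 CPM in shControl, a log2 fold change of -0.12 ± 0.04 (adjusted p = 0.0226). This call was lost under upper-quartile scaling (adjusted p = 0.164) and without any of the shTRIP6 replicates or shControl replicate 3 (adjusted p = 0.0697 to 0.121). CTNND1, which encodes p120-catenin, fell from 177, 177 and 190 CPM to 155, 152 and 155 CPM (log2 fold change -0.24 ± 0.05, adjusted p = 0.000221). Exons of CTNNA1 overlap those of LRRTM2, and exons of CTNND1 overlap those of the readthrough TMX2-CTNND1.

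JUP fell in all shTRIP6 libraries. It encodes plakoglobin (gamma-catenin, chr17:41754604-41786931), a plaque protein of desmosomes and adherens junctions. JUP measured 18.0, 15.5 and 15.1 CPM in shTRIP6 and 143, 139 and 145 CPM in shControl, a log2 fold change of -3.13 ± 0.07 (adjusted p = 7.83e-18). No shTRIP6 library reached the shControl range, and their mean was 11.4% of that in shControl. CTNNB1, the related beta-catenin gene, named after its values were seen, measured 286, 292 and 295 CPM in shTRIP6 and 229, 278 and 275 CPM in shControl. Its log2 fold change was 0.16 ± 0.06 (adjusted p = 0.0266), and the call was lost without shControl replicate 1 (0.0946), shTRIP6 replicate 2 (0.0657) or shTRIP6 replicate 3 (0.0654). Per kb, JUP made up 57.0% ± 2.80 of the JUP and CTNNB1 sum in shControl and 11.9% ± 1.19 in shTRIP6.

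Desmosomal cadherins divided within 1 cluster on chromosome 18. DSG2, the desmoglein of simple epithelia (chr18:31498043-31549008), fell from 200, 186 and 198 CPM to 105, 104 and 103 CPM (log2 fold change -0.90 ± 0.05, adjusted p = 9.84e-12). DSC2, a desmocollin 395.5 kb away, rose to 2.57, 2.49 and 3.99 CPM from 1.14, 1.35 and 1.00 CPM (log2 fold change 1.37 ± 0.28, adjusted p = 0.000351). DSC3, a desmocollin 16.0 kb beyond DSC2, rose to 2.92, 3.45 and 3.50 CPM from 1.08, 0.642 and 0.647 CPM (log2 fold change 2.06 ± 0.29, adjusted p = 5.80e-06). The rises were of genes at low levels: per kb, DSG2 kept 96.0% ± 0.573 of the sum of the 3 cadherins in shTRIP6, beside 99.4% ± 0.106 in shControl. Exons of DSG2 overlap those of DSG2-AS1.

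Desmosomal plaque genes fell or did not pass the test. DSP, which encodes desmoplakin, the link to keratin (chr6:7541575-7586717), fell from 127, 109 and 107 CPM to 53.8, 56.9 and 56.6 CPM (log2 fold change -1.04 ± 0.06, adjusted p = 8.36e-11). Among the plakophilins, which cluster desmosomal proteins, PKP2 fell from 14.1, 15.8 and 15.5 CPM to 10.2, 11.5 and 11.3 CPM (log2 fold change -0.46 ± 0.11, adjusted p = 0.00110). PKP4, a plakophilin found also outside desmosomes, fell from 97.9, 81.3 and 80.4 CPM to 74.5, 68.9 and 72.8 CPM (log2 fold change -0.26 ± 0.07). PKP3 measured 15.9, 17.1 and 15.6 CPM in shTRIP6 and 13.7, 19.8 and 16.2 CPM in shControl and was not called (log2 fold change -0.03 ± 0.12, adjusted p = 0.822). With PKP1 silent, PKP4 held 56.4% ± 2.13 of the summed plakophilin level per kb in shTRIP6 and 58.2% ± 5.83 in shControl, a difference smaller than the spread.

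Polarity genes changed most in 1 member, LLGL2. LLGL2, the epithelial Lethal giant larvae protein of the Scribble module (chr17:75525080-75575208), measured 0.282, 0.128 and 0.386 CPM in shTRIP6 and 17.1, 18.8 and 16.7 CPM in shControl. This left 1.51% of the shControl level (log2 fold change -6.03 ± 0.22, adjusted p = 2.49e-14), the largest fitted change among the members. The rest of the module rose by like amounts. LLGL1, the paralog of LLGL2 (chr17:18225587-18244875), rose to 61.4, 58.8 and 58.0 CPM from 41.9, 43.1 and 43.0 CPM (log2 fold change 0.48 ± 0.06). SCRIB, the scaffold that names the module, rose to 150, 154 and 147 CPM from 102, 110 and 115 CPM (log2 fold change 0.47 ± 0.05). DLG1, the discs large scaffold, rose to 169, 159 and 182 CPM from 125, 121 and 119 CPM (log2 fold change 0.48 ± 0.05).

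The summed level of LLGL1 and LLGL2 was 8.98 ± 0.266 CPM per kb in shTRIP6 and 8.65 ± 0.204 in shControl. LLGL2 made up 25.6% ± 1.10 of that sum in shControl and 0.374% ± 0.187 in shTRIP6. In the PAR complex the atypical protein kinases C went apart. PRKCI (chr3:170222365-170305981) fell from 128, 119 and 109 CPM to 58.8, 58.3 and 55.4 CPM (log2 fold change -1.05 ± 0.06, adjusted p = 3.23e-11). PRKCZ, the second of these kinases, rose to 12.6, 11.5 and 10.4 CPM from 8.03, 9.95 and 6.92 CPM (log2 fold change 0.47 ± 0.14, adjusted p = 0.00729). Their sum per kb was 11.4 ± 0.451 in shTRIP6 and 21.4 ± 1.64 in shControl, and PRKCI remained the larger part in all 6 libraries.

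PARD3, the scaffold of the PAR complex, rose to 75.8, 81.0 and 78.6 CPM from 58.6, 59.04 and 61.1 CPM (log2 fold change 0.40 ± 0.06). PARD6B, its adaptor, was not called at 3.83, 3.68 and 4.41 CPM in shTRIP6 and 4.34, 5.33 and 4.72 CPM in shControl (adjusted p = 0.194). Exons of 13 members overlap those of another gene, and no source used here states whether counting used strand. These include 5 of the 11 genes called higher: CLDN12 (with CDK14 and GTPBP10), PRKCZ (FAAP20 and PRKCZ-AS1), LLGL1 (FLII), SCRIB (MIR937) and DLG1 (DLG1-AS1). None of the 15 members that changed at least 2-fold is among the 13.

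**Figure D3:**
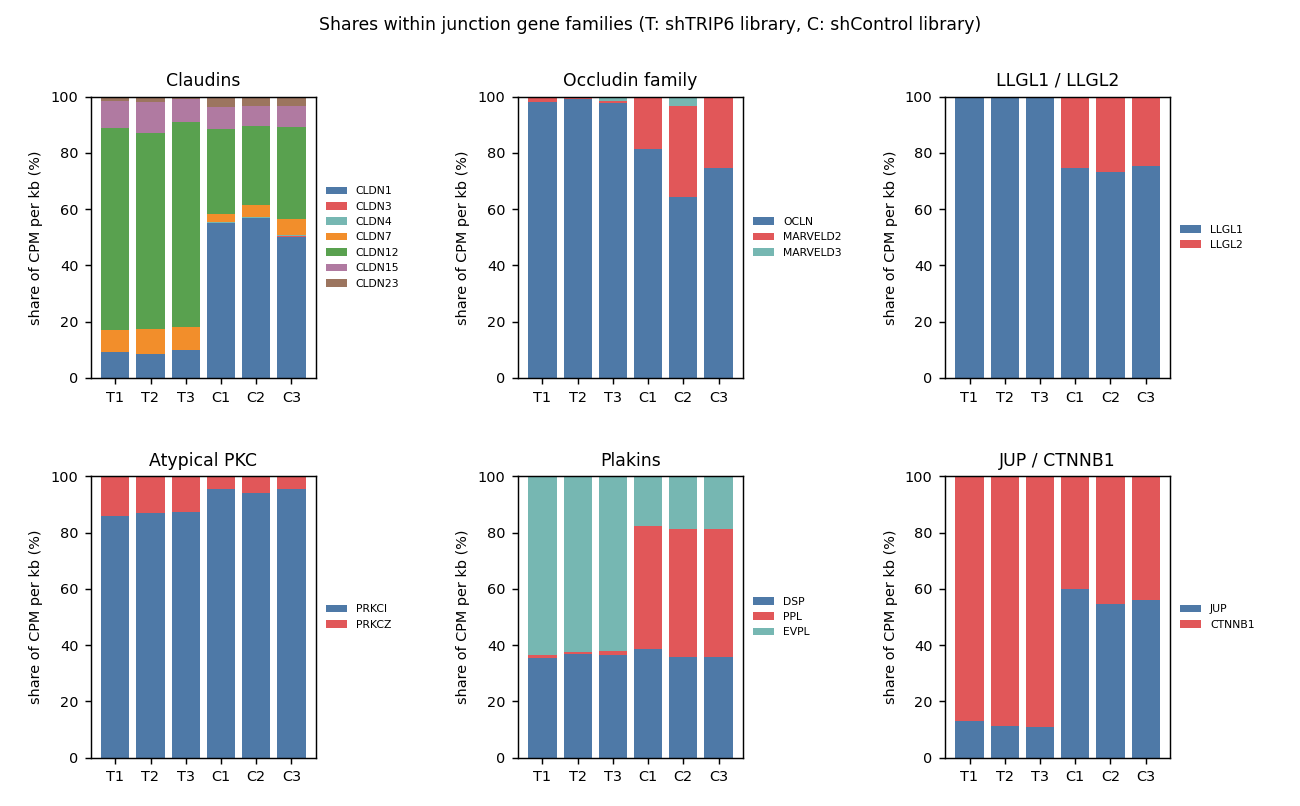
Stacked bars give the share of each gene in the summed level per kb of exon of the genes shown in its panel (percent). Bars are the 3 shTRIP6 libraries (T1 to T3) and the 3 shControl libraries (C1 to C3). CLDN1 gives way to CLDN12 (54.0% to 9.20% and 30.4% to 71.4%), LLGL2 and PPL almost disappear from shTRIP6, and JUP falls from 57.0% to 11.9% beside CTNNB1.

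A further 88 junction and polarity genes were examined in the same fit. Of 57 tested, 19 rose, 19 fell and 19 were not called, which is 66.7% called, near the 60.1% of all tested genes (29.0% higher and 31.2% lower). Of the 17 other claudins, 13 had too few counts to be tested and 5 had 0 counts in all libraries. CLDN10, an ion-pore claudin, rose to 8.16, 7.64 and 8.46 CPM from 3.93, 2.63 and 1.71 CPM (log2 fold change 1.55 ± 0.22), and its exons overlap those of DZIP1. Of 17 other tight junction genes, 15 were tested, 7 rose and 3 fell. ESAM, an endothelial-type adhesion molecule, rose at low levels (log2 fold change 2.22 ± 0.25). Also named by rule were ARHGEF2 (0.49) and MAGI2 (0.67), which rose, and IGSF5 (-1.41) and VAPA (-0.58), which fell. The call of MAGI2 was lost without shControl replicate 3 (adjusted p = 0.0850) or shTRIP6 replicate 1 (0.0598).

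The other desmosome and adherens genes held large falls as well. PPL, which encodes periplakin, a plakin that binds keratin filaments, measured 1.00, 0.799 and 1.54 CPM in shTRIP6 and 111, 106 and 104 CPM in shControl, a log2 fold change of -6.58 ± 0.12 (adjusted p = 4.32e-19). EVPL, its partner envoplakin, rose to 71.7, 72.0 and 71.4 CPM from 43.0, 42.5 and 41.8 CPM (log2 fold change 0.76 ± 0.06). The summed level of DSP, PPL and EVPL was 15.2 ± 0.186 CPM per kb in shTRIP6 and 30.9 ± 1.60 in shControl. DSP made up 36.3% ± 0.670 of that sum in shTRIP6 and 36.7% ± 1.53 in shControl. PPL made up 0.953% ± 0.324 in shTRIP6 and 45.0% ± 0.825 in shControl. PERP, a desmosome-associated membrane protein, fell from 217, 229 and 218 CPM to 112, 119 and 115 CPM, and PNN fell by 0.30 on the log2 scale. Of 20 other adherens genes, 14 were tested, 6 rose and 5 fell, which is 78.6% called, against 60.1% of all tested genes. PLEKHA7, which links p120-catenin to microtubules, fell from 13.8, 12.8 and 10.1 CPM to 1.04, 1.60 and 1.16 CPM (log2 fold change -3.27 ± 0.19). CAMSAP3, the microtubule minus-end protein that PLEKHA7 recruits, named after its values were seen, had 0 counts in shTRIP6 and 11, 52 and 54 counts in shControl. With 3 counts over the shTRIP6 group taken as the floor, CAMSAP3 was at least 40.0-fold lower.

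NECTIN1, an immunoglobulin-like adhesion protein of adherens junctions, fell from 23.7, 21.6 and 24.3 CPM to 7.81, 8.15 and 9.39 CPM (log2 fold change -1.46 ± 0.10). NECTIN4 had a log2 fold change of -0.90 ± 0.38 (adjusted p = 0.0491), a call lost in 8 of its 14 alternatives, at an adjusted p of up to 0.314 without shControl replicate 1. AFDN, the afadin gene whose product binds nectins, rose to 58.8, 60.4 and 66.8 CPM from 41.0, 36.0 and 39.7 CPM, with ARVCF (0.97) and LIMA1 (0.45) also higher. Of 23 other polarity genes, 20 were tested, 4 rose and 8 fell, which is 60.0% called, near the 60.1% of all tested genes. DLG3 fell from 23.5, 24.8 and 25.1 CPM to 6.15, 4.99 and 7.04 CPM (log2 fold change -2.01 ± 0.12), opposite to its paralog DLG1. CRB2, a Crumbs paralog, fell from 1.55, 2.28 and 1.65 CPM to 0.408, 0.352 and 0.257 CPM, and PDZK1 fell by 2.04 on the log2 scale. STK11, the LKB1 kinase gene, rose to 52.1, 54.1 and 52.3 CPM from 25.3, 30.8 and 25.9 CPM, with LIN7B (0.97) and PARD6G (0.58) also higher.

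Several regulators of epithelial genes fell in the same comparison. Of 17 listed epithelial regulators, 10 had too few counts to be tested, 0 rose, 6 fell, where the background was 31.2% lower, and ESRP2 was not called (log2 fold change 0.44 ± 0.24, adjusted p = 0.126). KLF5, a Krüppel-like factor of intestinal epithelium, measured 7.69, 8.38 and 7.78 CPM in shTRIP6 and 152, 127 and 123 CPM in shControl, a log2 fold change of -4.07 ± 0.09 (adjusted p = 6.46e-18). ELF3, an epithelial ETS factor, fell from 57.7, 65.7 and 61.9 CPM to 0.471, 0.544 and 1.38 CPM (log2 fold change -6.27 ± 0.17). EHF, an ETS factor of the same subfamily, fell from 12.0, 11.2 and 9.09 CPM to 0.220, 0.160 and 0.386 CPM, and KLF4, named after its values were seen, fell by 3.05 on the log2 scale. GRHL2, OVOL1 and CDX1 had 0 counts in all libraries.

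Among repressors of junction genes, ZEB1, ZEB2 and SNAI2 were expressed in both groups. ZEB1 measured 72.2, 64.3 and 78.5 CPM in shTRIP6 and 75.5, 59.8 and 64.0 CPM in shControl and was not called (adjusted p = 0.258), although it was called higher without shControl replicate 1 (0.00514). ZEB2 stood at 46.6 to 64.4 CPM and SNAI2 at 77.0 to 106 CPM across the libraries, with log2 fold changes of -0.21 and -0.25. The call of ZEB2 was lost under upper-quartile scaling (adjusted p = 0.0566) and without shTRIP6 replicate 2 (0.134). SNAI1 fell to 2, 0 and 2 counts from 48, 64 and 57 counts (log2 fold change -5.31 ± 0.58). ZEB1, ZEB2, SNAI2 and SNAI1 were named after their values were seen. Of the 10 listed genes of this kind 9 were tested, 1 rose (TCF4, 0.69) and 7 fell, among them TWIST2 (-1.51), FOXC2 (-1.02) and TWIST1 (-0.52). That is 88.9% called, against 60.1% of all tested genes (29.0% higher and 31.2% lower). The call of TCF4 was lost without shControl replicate 3 (adjusted p = 0.0603), and that of TWIST1 without shControl replicate 2 (0.0764) or shTRIP6 replicate 1 (0.0568).

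**Figure D4:**
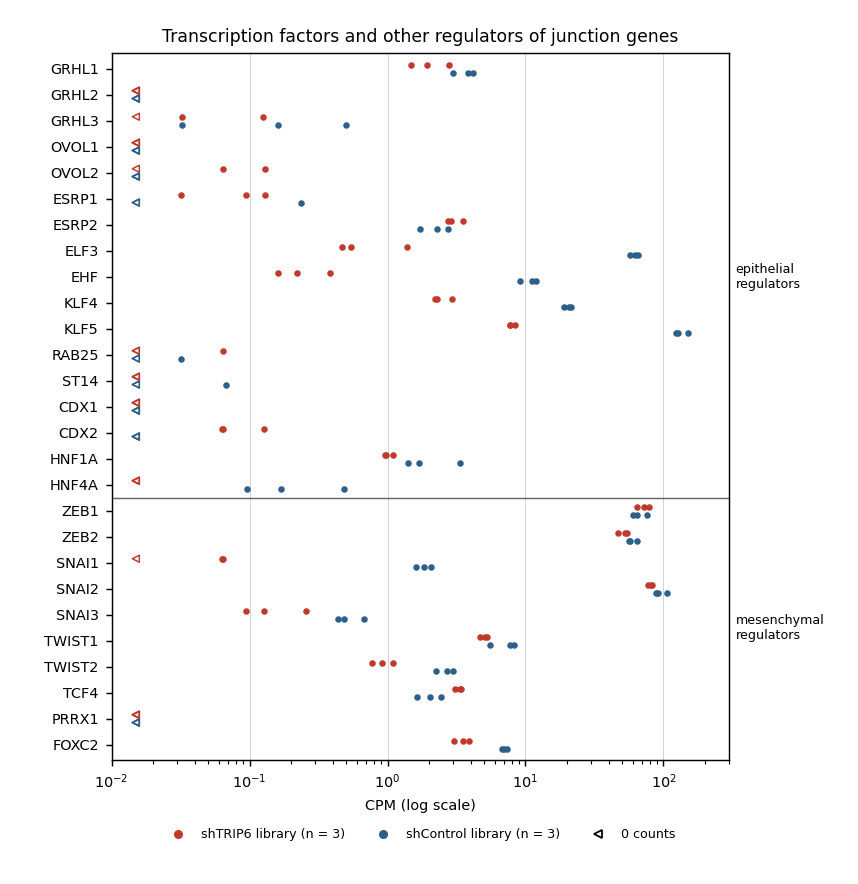
Each point is the level of a regulator in a library (CPM, log axis), red for shTRIP6 and blue for shControl, with open triangles for 0 counts. ELF3, EHF, KLF4 and KLF5 lie far lower in shTRIP6, while ZEB1, ZEB2 and SNAI2 stay between 46.6 and 106 CPM in all 6 libraries.

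Markers of other cell types were read beside these genes. The summed level of 8 fibroblast markers was 17.1 to 18.8 CPM in shTRIP6 and 32.1 to 35.7 CPM in shControl, and none of the 8 was below 0.5 CPM in every library. Of these, 1 rose, 5 fell and 2 were not called, which is 75.0% called, against 60.1% of all tested genes. PDGFRB rose to 14.7, 12.6 and 14.5 CPM from 7.80, 5.49 and 7.37 CPM, while FAP fell from 16.2, 15.3 and 13.6 CPM to 0.408, 0.256 and 0.322 CPM. DCN and POSTN had 0 counts in shTRIP6 and 30 to 46 counts in each shControl library. Of 6 endothelial markers, CDH5, VWF and KDR were below 0.5 CPM throughout and the sum was 1.80 to 1.91 CPM in shTRIP6 and 2.66 to 3.50 CPM in shControl. PECAM1 went to 0 counts from 51, 51 and 49 counts, and TIE1 had a log2 fold change of 0.94 ± 0.38 (adjusted p = 0.0379), a call lost without shControl replicate 1 (0.152) or any of the shTRIP6 replicates (0.06 to 0.102). Of 5 keratinocyte markers, KRT5, KRT14 and KRT6A were below 0.5 CPM throughout, and the sum, mostly KRT10, was 34.8 to 37.1 CPM against 39.4 to 45.3 CPM. TP63, a factor of basal epithelium, went to 0 counts from 45, 51 and 30 counts. Of leukocyte genes, CD14 rose to 2.60, 1.60 and 2.44 CPM from 0.302, 0.610 and 0.647 CPM, and CD68 rose to 243, 241 and 234 CPM from 235, 186 and 204 CPM with overlapping libraries, a call lost without shControl replicate 2 (adjusted p = 0.0921), while PTPRC, CD3E and LYZ were below 0.5 CPM throughout. Markers named here with their own values were chosen after these were seen. KRT19, a simple-epithelium keratin named after its values were seen, was higher in shTRIP6 (log2 fold change 1.87 ± 0.10), while KRT8 and KRT18 were not called. The part of these markers in the junction results was not tested.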

How the data were processed

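RNA-seq libraries of RKO cells, 3 shTRIP6 and 3 shControl, were grouped by the labels. The deposited files hold raw read counts per gene symbol, and hg38, TopHat2, edgeR and limma are named in the submitters' processing notes without role or version. For the counting tool, the annotation and strandedness nothing is stated (not given in the sources used here). All rows named a gene. The whole table was fitted in R 4.3.3 with edgeR 4.0.16 (filterByExpr, TMM, quasi-likelihood, group only), and p-values were adjusted over 15473 genes. The test was also run on simulated counts, with spreads taken from these libraries and far fewer changed genes than were called here. That run therefore cannot give the rate of false calls in these data. SE is the size of the log2 fold change divided by the square root of F. A single count was worth 0.0314 to 0.0336 CPM. Genes under 0.5 CPM in every library were called silent. Levels per kb used exon unions of GENCODE release 29 (GRCh38), which found all 41 members and may differ from the authors' annotation. Of each further list, up to 3 rises and 3 falls with a mean of at least 1 CPM were named. A gene that this rule names and a marker gene with its list's sum are not reported here. Members and lists were chosen with earlier results of these data known. Alternatives were RLE, upper-quartile and no scaling, 2 other filters, DESeq2 1.42.0, limma-voom 3.58.1, a replicate block, single libraries left out and, chosen after seeing the data, only genes without overlapping exons.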

Additional observations from a re-analysis of the deposited data

How the results depend on the processing

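Of the 29 called members, 28 kept direction and call in every alternative that tested them, and CTNNA1 lost its call in 5 of 14. Restricting the members to genes with no overlapping exons, an alternative chosen after seeing the data, left 6 called higher and 14 called lower, and left 12 higher among the other junction genes, since fewer genes are counted. At 0.1 CPM the silent members numbered 3, since the limit is lower. CLDN7 was called without shControl replicate 3 (log2 fold change 0.50, adjusted p = 0.0409) and CLDN15 without shTRIP6 replicate 2 (-0.40, 0.0411). Signs turned only for genes not called: JAM3 without shControl replicate 3 (-0.0002), PKP3 under upper-quartile scaling (0.0147) and without shControl replicate 2 (0.1145) or shTRIP6 replicate 3 (0.0029), and KRT18 without shControl replicate 1 (-0.0269). Leaving out single libraries gave -0.0002 to 0.5656 for JAM3, -0.1527 to 0.1145 for PKP3 and -0.0269 to 0.061 for KRT18. The cause was not tested. Same-numbered libraries did not deviate together (r = -0.0234, -0.0448 and -0.0258 over 15473 genes). Whether they share more than a number is not stated in the labels, and correlations of deviations from group means cannot decide it. With the replicate number as a block, 11 members were called higher and 18 lower, as without it, and no library correlated best with its own number. Depth limits the silent members, for which differences below about 3 counts could not be seen.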
